A study of Mus musculus with 2 samples.

Results

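The genes described here are the adhesion and orphan G protein-coupled receptors of the mouse, the small receptor families that share their ligands or relatives among them (P2Y, lysophosphatidic acid, protease-activated and adenosine receptors), and the regulators of G protein signalling (RGS). They were taken by symbol, as every probe set whose only gene symbol begins with Gpr, Adgr, Rgs, Lpar, P2ry, F2r or Adora in the pattern of that family. Gpr182 and Rgs5 were left out, and the members were chosen with earlier results of these data known. The symbol rule gave 120 genes, measured by 201 probe sets, out of 18193 genes with a single symbol on the array. Of the 120 genes, 22 were adhesion receptors, 9 P2Y receptors, 5 lysophosphatidic acid receptors, 3 protease-activated receptors, 1 adenosine receptor, 60 Gpr-named genes and 20 genes of the RGS name, of which Rgs7bp and Rgs9bp encode binding partners of RGS proteins. The symbol pattern matches 150 genes in RefSeq, and the others were not analysed here.

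RNA labelled as that of lung vascular cells was measured on 2 one-colour Affymetrix arrays, 1 from old and 1 from young C57BL/6J mice. Per the labels, in both groups the left lung lobe had been removed and the cells were flow-sorted from the right lobes that remained, so the operation is shared, and no group without it is described here. Ages, days since surgery, sort markers and how many mice were pooled for an array are not stated in the sources used here. With 1 array in each group, no difference has a replicate check, no test across mice exists, and the number of arrays limits the precision of every value.

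A G protein-coupled receptor passes a signal to a heterotrimeric G protein inside the cell, whose alpha subunit stays active while it holds GTP. RGS proteins speed up the hydrolysis of that GTP and so shorten the signal, each with a preference for certain alpha subunits. Adhesion receptors carry long extracellular regions, and most of them are cut by autoproteolysis next to the membrane. In blood vessels, receptors for thrombin, nucleotides, lysophosphatidic acid and protons take part in control of tone, barrier and sprouting, and several RGS genes are known as genes quickly induced by stimulation.

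All signals below are MAS5 intensities after a scaling that sets the median ratio of the 2 arrays to 1, and every log2 ratio is that of the old over the young array. A signal was treated as measured when it reached a floor of 73.7 units, the higher of both arrays' medians, and a gene below the floor on 1 array has a ratio that is only a lower bound. The labelled cell type was checked against marker genes. All 12 pan-endothelial markers were above the floor on both arrays, with a summed signal of 149378 on the old array and 87921 on the young. The summed signal of 9 liver sinusoidal endothelial markers was 181715 on the old array, with all 9 above the floor, and 12688 on the young, with 4 above it. That of 7 hepatocyte markers was 13994 on the old array (7 above the floor) and 99.4 on the young (0 above it), and that of 10 macrophage markers 19997 on the old array (10 above the floor) and 547 on the young (2 above it). For 8 pericyte and smooth muscle markers the sums were 23804 on the old array (8 above the floor) and 400.2 on the young (2 above it), and for 8 fibroblast markers 22871 on the old array (7 above the floor) and 313 on the young (1 above it). For 5 mesothelial markers the sums were 8458 on the old array (5 above the floor) and 50.6 on the young (0 above it). For 7 lymphatic endothelial markers they were 35086 on the old array (5 above the floor) and 64662 on the young (7 above it). Flt4 and Lyve1 made up most of the old sum, and the median log2 ratio of this list was -5.23, with Prox1 at 60.6 on the old array and 6885 on the young and Mmrn1 at 74.6 on the old array and 10039 on the young. The 9 lung capillary markers went both ways. Gpihbp1 had 32563 on the old array and 911 on the young, Kit had 7595 on the old array and 50.8 on the young, Ednrb had 1280 on the old array and 11300 on the young, and Car4, Tbx3 and Fibin were below the floor on both. Of 10 lung epithelial markers, 5 were above the floor on the old array and 2 on the young, the highest being Cdh1 with 294 on the old array and Ager with 243 on the young, while Sftpc, Sftpa1, Aqp5, Scgb1a1 and Foxj1 were below it on both. Lung is the labelled tissue of both arrays. The liver sinusoidal and hepatocyte signal of the old array goes against that label. The young array was not a plain lung capillary profile either. Its lymphatic markers were high, and 5 of the 9 lung capillary markers were above the floor on it, against 4 on the old array. Whether both arrays hold cells of the same tissue was not tested, so each ratio below compares 2 arrays as labelled. In bulk RNA fewer cells of a type and less RNA per cell cannot be told apart, and the part that these differences in cell markers have in the ratios below was not tested.

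A larger share of these members than of all genes was past 2-fold on the old side, and the families differed in this, with adhesion, P2Y and lysophosphatidic acid receptors mostly on the old side and RGS genes evenly split. Gpr155 (55.4-fold), Adgrl4 (18.6-fold), Adgrl2 (log2 ratio 3.59) and Gpr4 (log2 ratio 3.58) had the largest ratios toward the old array among members measured on both, and Rgs16 (13.0-fold) had the largest toward the young. Of the 120 genes, 62 reached the floor on at least 1 array, 35 of them on both, 21 on the old array only and 6 on the young array only, and 58 were below it on both. Among the 35 measured on both arrays, 13 (37.1%) were past 2-fold on the old side, where the share over all 10004 such genes was 11.7%, and 5 (14.3%) were past it on the young side, against 10.6% of all such genes. The other 17 lay within 2-fold. A further 12 members were at least 2-fold over the floor on the old array while below it on the young, and 2 the other way round. These had to differ in order to be counted, and with them the totals were 25 of 62 (40.3%) on the old side, against 16.0% of all 12105 genes above the floor on at least 1 array, and 7 of 62 (11.3%) on the young side, against 11.3%. The median log2 ratio of the 35 members measured on both arrays was 0.50, and that of all 10004 genes was -0.02. A lean to the old side was not particular to these members. Of the 12 pan-endothelial markers, all above both floors, 5 (41.7%) were past 2-fold on the old side and 1 (8.33%) on the young, with a median log2 ratio of 0.59. The nearest genes short of 2-fold were Rgs3, with a log2 ratio of 0.95, and Rgs19, with -0.78, and the nearest past it were Gpr137b at -1.09 on the young side and Gpr132 with a bound of 2.15-fold on the old side. At 3-fold in place of 2-fold, 15 members were on the old side, against 9.86% of the 12105 genes, and 3 on the young, against 5.86%.

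**Figure D1:**
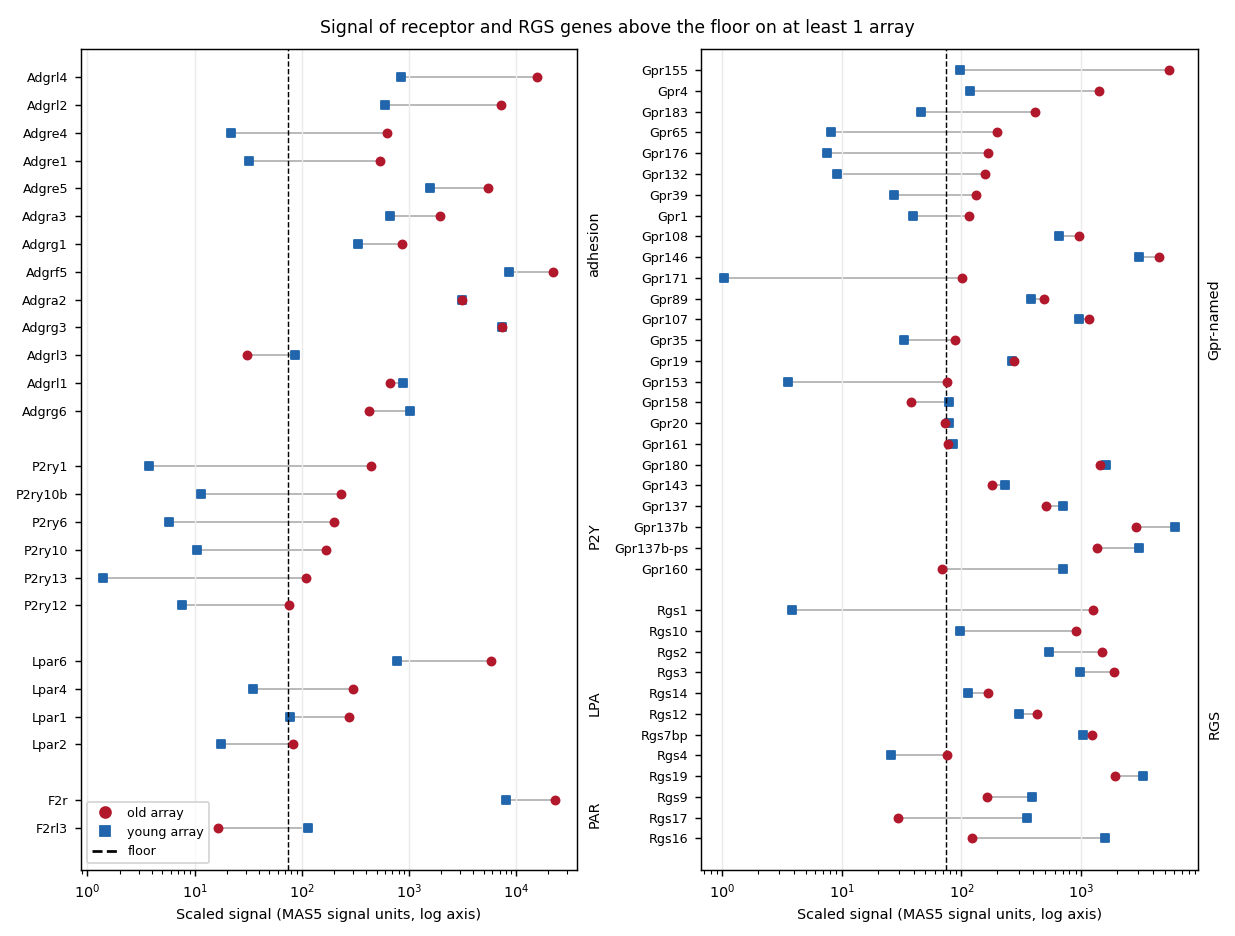
Scaled signal in MAS5 units (log axis) of the 62 genes that reached the floor on either array, by family, with circles for the old array, squares for the young array and a dashed line at the floor of 73.7. Gpr155 has 5407 on the old array and 97.6 on the young, and Rgs16 has 123 on the old array and 1598 on the young.

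**Figure D2:**
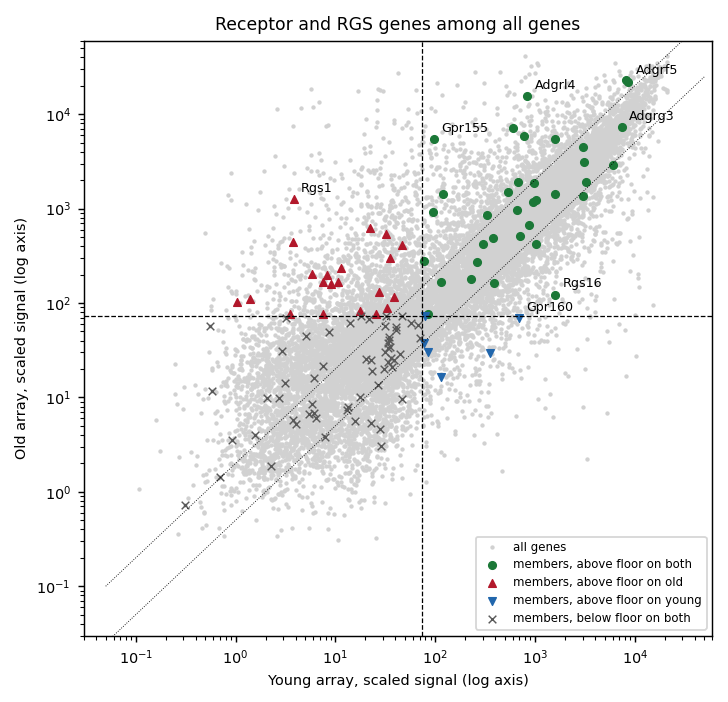
Signal on the old array against signal on the young array (both log axes) for all 18193 genes in grey, with the 120 receptor and RGS genes marked by whether each array reached the floor (dashed lines). Dotted lines mark 2-fold, and 13 of the 35 members above both floors lie beyond it toward the old array.

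The stretch around the start of transcription is shown for 5 of these genes, from 250 bases before to 50 bases after the start, from RefSeq on build GRCm38.p6. Gpr155 and Rgs16 have the largest ratio in each direction among members measured on both arrays, Adgrl4 and Adgrl2 are direct neighbours on chromosome 3, and F2r, chosen after the search, holds 2 of the motifs sought. Capitals mark any match, on either strand, to 1 of 5 short motifs. These were the TATA box with the letters TATAAA, the element bound by AP-1 factors with the letters TGANTCA, the cAMP response element with the letters TGACGTCA, the core shared by ETS factor sites with the letters CCGGAA, and the E-box, here in its form with the letters CACGTG. The windows lie at chr2:73386431-73386730 on the minus strand for Gpr155, chr3:151437632-151437931 on the plus strand for Adgrl4, chr3:148954586-148954885 on the minus strand for Adgrl2, chr13:95618417-95618716 on the minus strand for F2r, and chr1:153740103-153740402 on the plus strand for Rgs16.
Gpr155: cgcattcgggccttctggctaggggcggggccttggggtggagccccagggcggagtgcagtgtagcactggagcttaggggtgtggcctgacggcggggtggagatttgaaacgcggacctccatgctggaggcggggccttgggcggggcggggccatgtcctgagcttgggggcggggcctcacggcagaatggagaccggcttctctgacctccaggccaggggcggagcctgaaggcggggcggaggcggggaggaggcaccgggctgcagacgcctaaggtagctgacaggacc
Adgrl4: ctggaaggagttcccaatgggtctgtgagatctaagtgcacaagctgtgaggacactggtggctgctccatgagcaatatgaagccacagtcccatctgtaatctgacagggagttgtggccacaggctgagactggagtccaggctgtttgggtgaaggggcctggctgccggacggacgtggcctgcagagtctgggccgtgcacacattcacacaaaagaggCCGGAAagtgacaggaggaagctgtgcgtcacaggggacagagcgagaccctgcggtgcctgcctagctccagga
Adgrl2: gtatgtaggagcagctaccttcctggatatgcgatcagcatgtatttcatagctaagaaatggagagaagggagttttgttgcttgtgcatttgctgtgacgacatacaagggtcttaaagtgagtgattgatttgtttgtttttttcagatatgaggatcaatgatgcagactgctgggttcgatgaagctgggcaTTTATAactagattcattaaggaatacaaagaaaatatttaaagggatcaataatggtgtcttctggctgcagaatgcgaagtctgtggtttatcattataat
F2r: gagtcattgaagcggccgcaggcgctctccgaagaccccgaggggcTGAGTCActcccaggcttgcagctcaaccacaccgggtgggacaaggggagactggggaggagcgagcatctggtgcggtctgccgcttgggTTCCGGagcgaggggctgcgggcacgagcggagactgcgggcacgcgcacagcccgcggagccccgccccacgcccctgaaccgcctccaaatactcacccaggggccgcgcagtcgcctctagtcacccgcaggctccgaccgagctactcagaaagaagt
Rgs16: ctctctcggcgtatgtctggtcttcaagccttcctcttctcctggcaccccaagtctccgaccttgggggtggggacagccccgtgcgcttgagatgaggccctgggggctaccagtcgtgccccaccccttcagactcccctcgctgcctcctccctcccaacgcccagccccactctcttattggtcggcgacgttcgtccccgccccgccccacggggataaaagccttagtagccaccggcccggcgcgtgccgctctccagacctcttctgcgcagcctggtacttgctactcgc

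The capitals show an ETS core at position -25 relative to the start of Adgrl4, a TATA box in the reverse orientation at -53 for Adgrl2, and, for F2r, an AP-1 element at -204 and an ETS core in the reverse orientation at -112. None of the 5 motifs is in the windows of Gpr155, with 70.3% G and C, and Rgs16, with 66.0%. Of the 62 members above the floor, 51 had a window in the table, some with several starts, which gave 76 windows. An AP-1 element was in 10 of these (13.2%), against 7.81% of all 32851 windows of this length, a TATA box in 11 (14.5% against 13.6%), an ETS core in 8 (10.5% against 14.9%), an E-box in 4 (5.26% against 7.15%) and a cAMP response element in 0 (0% against 1.79%). Members on the old side by 2-fold or more with an AP-1 element were Adgrg1, F2r, P2ry10 and P2ry10b, and Rgs17 was the one on the young side. Those with an ETS core on the old side were Adgra3, Adgrl4, F2r and Lpar6. These matches describe the letters of the windows and are not evidence of binding.

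Adhesion receptors were the family with the most members on the old side. Of 22 members, 13 reached the floor on at least 1 array and 10 on both. Of those 10, 6 were past 2-fold on the old side, against 11.7% of all genes above both floors. On the young side was 1, against 10.6% of such genes, and 3 lay within 2-fold. Over the 13 genes the median log2 ratio was 1.38. Adgrl4, also called ELTD1 and known from growing vessels, had 15631 signal units on the old array and 841 on the young, a log2 ratio of 4.22, and its other probe set gave 3.97. Adgrl2, a latrophilin, had 7192 on the old array and 597 on the young (log2 ratio 3.59), and its other probe set above the floor gave 3.83. Both genes were therefore over 8-fold higher on the old array by each of their measured probe sets. The remaining latrophilins did not follow them. Adgrl1 had 663 on the old array and 877 on the young (log2 ratio -0.40, and -0.40 by its other probe set), and Adgrl3 had 30.6, below the floor, on the old array and 85.6 on the young.

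Adgrf5, also called GPR116 and known from lung endothelium and from control of surfactant in alveolar type 2 cells, had 22082 on the old array and 8614 on the young. Its log2 ratio was 1.36 by this probe set and 2.09 by the other. Adgre5, which encodes the leukocyte and vascular receptor CD97, had 5452 on the old array and 1584 on the young (3.44-fold). Adgra3 had 1928 on the old array and 669 on the young (2.88-fold). Adgrg1, also called GPR56, had 865 on the old array and 332 on the young (2.60-fold), with log2 ratios of 1.38 and 1.35 by its 2 probe sets, the first of a kind that can match several transcripts.

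Adgre1, which encodes the mouse macrophage antigen F4/80, had 537 on the old array and did not reach the floor on the young, at least 7.29-fold higher. Adgre4, a close relative also known from mouse macrophages, had 625 on the old array and did not reach the floor on the young, at least 8.48-fold higher, although its other probe set reached only 88.7 on the old array. The summed signal of the 10 macrophage markers differed in the same direction, and their part in these values was not tested.

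Adgra2, also called GPR124, a receptor of brain vessel growth that acts with Wnt ligands, had 3113 on both arrays and a log2 ratio of 0.00. Adgrg3, also called GPR97 and known from granulocytes and lymphatic endothelium, had 7329 on the old array and 7400 on the young (log2 ratio -0.01). Both were well above the floor, so their ratios are not set by low signal. Adgrg6, also called GPR126 and known for its role in myelination, was on the young side, with 422 on the old array and 1025 on the young (2.43-fold higher on the young). Without the probe sets of the shared-sequence kind its log2 ratio was -0.92, under 2-fold. The call of Adgrf5 ended with quantile normalization (log2 ratio 0.80). Adgra1, Adgrb1, Adgrb2, Adgrb3, Adgrd1, Adgrf1, Adgrf4, Adgrg2 and Adgrv1 were below the floor on both arrays, Adgrb1 to Adgrb3 being the brain angiogenesis inhibitors known mainly from the nervous system.

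Among lysophosphatidic acid receptors, 4 of 5 reached the floor on at least 1 array, with a median log2 ratio of 1.93. Of these, 3 (75%) were past 2-fold on the old side, against 16.0% of all genes above the floor on at least 1 array. Lpar6, a receptor related to the P2Y family rather than to the sphingosine-1-phosphate receptors, had 5832 on the old array and 780.5 on the young (7.47-fold). Lpar4, its closest relative, known in mouse endothelium for control of sprouting together with Lpar6, had 301 on the old array and did not reach the floor on the young, at least 4.08-fold higher. Lpar1, a widely expressed receptor of the other branch, had 278 on the old array and 77.9 on the young (3.57-fold), with the young signal just above the floor. Lpar2 had 82.5 on the old array, close to the floor, and 17.7 on the young, and Lpar3 was below the floor on both. Of 6 enzymes that make or degrade the ligand, 4 were measured. Past 2-fold on the old side was 1 of these (25%), against the same 16.0% of all genes. Plpp3, a lipid phosphatase that dephosphorylates lysophosphatidic acid at the cell surface, had 34849 on the old array and 6351 on the young (5.49-fold), while Plpp1 (log2 ratio 0.88), Plpp2 (-0.86) and the phospholipase Pla1a (-0.98) were within 2-fold. The other probe set of Plpp1 gave 1.08, past 2-fold on the old side. Over the 4 measured genes the median log2 ratio was 0.01.

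Protease-activated receptors are switched on by cleavage of their extracellular end, which then acts as a tethered ligand. F2r, the thrombin receptor PAR1, had 22852 on the old array and 8103 on the young, 2.82-fold by one probe set and a log2 ratio of 1.72 by the other. Both probe sets are of the shared-sequence kind, and the ratio was 0.95 with quantile normalization. F2rl3, the thrombin receptor PAR4 known best from platelets, was below the floor at 16.6 on the old array and had 115 on the young, at least 1.56-fold toward the young array. F2rl2 was below the floor on both arrays, and the median log2 ratio of the other two was 0.43.

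P2Y receptors, most but not all of which respond to extracellular nucleotides, were measured on the old array only. Of 9 genes, 6 reached the floor on the old array and 0 on the young, so each ratio is a bound (median of the log2 bounds 1.32). Over all 12105 genes above the floor on at least 1 array, 1446 reached it on the old array only and 655 on the young only. The bounds of 4 P2Y genes (66.7% of the 6) were past 2-fold, against 16.0% of those 12105 genes on the old side, bounds included. P2ry1, an ADP receptor of platelets and endothelium, had 443 on the old array and 3.72 on the young, at least 6.01-fold higher. P2ry10b had 232 on the old array and 11.4 on the young, P2ry6, a receptor for UDP, had 201 on the old array and 5.82 on the young, and P2ry10, a receptor for lysophosphatidylserine known from lymphocytes, had 167 on the old array and 10.6 on the young. Their bounds toward the old array were 3.15-fold for P2ry10b, 2.73-fold for P2ry6 and 2.27-fold for P2ry10. P2ry13 (109 on the old array) and P2ry12, the ADP receptor of platelets and microglia (76.7 on the old array and 7.59 on the young), were above the floor on the old array by less than 2-fold. P2ry2, P2ry4 and P2ry14 were below the floor on both arrays.

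Several of these genes are known from leukocytes and platelets. The summed signal of 10 pan-leukocyte markers was 23864 on the old array and 7327 on the young, with 10 of them above the floor on the old array and 4 on the young. Arhgdib and Lcp1 made up most of the young sum, and the list's median log2 ratio was 3.16, with Ptprc at 1403 on the old array and 0.840 on the young. That of 6 platelet markers was 1492 on the old array (3 above the floor) and 769 on the young (4 above it). Of these markers 2 were past 2-fold on the old side and 1 on the young, Gp1bb, with 67.0 on the old array and 286 on the young. For T and NK cells the sum over 7 markers was 597 on the old array (4 above the floor) and 109 on the young. For B cells the sum over 5 markers was 443 on the old array (4 above it) and 120 on the young. None of these 12 markers was above the floor on the young array. The highest on the old array were Nkg7 at 201 and Ms4a1 at 148, so both sums rest largely on signals near or below the floor. The T and NK cell markers Cd4, Cd8a and Ncr1 and the B cell marker Pax5 were below it on both. The part of these cells in the values of P2Y and other receptors was not tested.

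A list of 11 genes held those that degrade or carry extracellular nucleotides and adenosine, and Dpp4. Of these, 7 were measured (median log2 ratio 0.45, against 0.03 over all genes above the floor on at least 1 array). Past 2-fold on the old side were 3 (42.9%), against 16.0% of all such genes, and on the young side 0, against 11.3%. Entpd1 (log2 ratio -0.70), Entpd5 (-0.55), Entpd2 (0.28) and Adk (0.45) were within 2-fold by the probe sets used. The 3 probe sets of Entpd1 above the floor spread from -1.73, past 2-fold on the young side, to -0.70. The 5 of Entpd5 spread from -0.55 to 0.69. Dpp4, a peptidase that binds adenosine deaminase at the cell surface, had 7493 on the old array and did not reach the floor on the young, at least 102-fold toward the old array, with its 4 probe sets spread from 3.30 to 7.30 in log2 ratio. Slc29a1, the equilibrative nucleoside transporter, had 6281 on the old array and 692 on the young (9.08-fold), and Ada, adenosine deaminase itself, had 2863 on the old array and 1250 on the young (2.29-fold). The one adenosine receptor among the 120 genes, Adora3, was below the floor on both arrays. Other adenosine receptors were not analysed here.

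The Gpr-named genes are a mixed group of orphan receptors, receptors whose ligand was found later, and membrane proteins of internal compartments. Of 60, 25 reached the floor on at least 1 array, of which 6 (24%) were past 2-fold on the old side, against 16.0% of all genes above the floor on at least 1 array, and 3 (12%) on the young, against 11.3%. The median log2 ratio was 0.29. All 3 proton-sensing receptors among the members were on the old side. Gpr4, known in endothelium for its response to acid, had 1422 on the old array and 119 on the young (log2 ratio 3.58), with the young signal 1.61 times the floor. Gpr65 had 198 on the old array and 8.19 on the young, at least 2.69-fold higher, and Gpr132 had 159 on the old array and 9.08 on the young, at least 2.15-fold higher. Gpr65 and Gpr132 are known from lymphocytes and macrophages, as is Gpr183, an oxysterol receptor that guides the migration of B cells. Gpr183 had 409.9 on the old array and 46.2 on the young, at least 5.56-fold higher, and its other probe set gave a bound of 1.09 in log2 ratio. Gpr176, an orphan known from the circadian clock of the brain, had 166 on the old array and 7.56 on the young, at least 2.25-fold higher.

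Genes for internal membrane proteins were measured on both arrays in 8 of 9 cases. Gpr155, also called LYCHOS, a lysosomal protein that senses cholesterol, had 5407 on the old array and 97.6 on the young, a log2 ratio of 5.79 from its single probe set. Its young signal was 1.32 times the floor, so the fold rests on a low value. Gpr137b, another lysosomal membrane protein, lay on the other side, with 2866 on the old array and 6112 on the young (2.13-fold higher on the young), and the probe set assigned to its pseudogene Gpr137b-ps, which may not be separable from it, had 1369 on the old array and 3051 on the young. Those above the floor are all of the shared-sequence kind, and 4 probe sets with both symbols were not used. Gpr137 (-0.47), Gpr180 (-0.16), Gpr107 (0.29), Gpr89 (0.36) and Gpr108 (0.57) were within 2-fold in log2 ratio, and the last 3 encode proteins of the Golgi.

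Gpr160, whose ligand is not settled, had the largest bound toward the young array. It was at 68.6, below the floor, on the old array and at 699 on the young, a ratio toward the young array of at least 9.49-fold. Gpr146, which takes part in control of plasma cholesterol, had 4494 on the old array and 3060 on the young (log2 ratio 0.55), while its other probe sets gave 0.11 and 0.00, so no difference is given for it. Gpr19 (log2 ratio 0.06), Gpr143 (-0.36) and Gpr161 (-0.13) were within 2-fold on both arrays. Gpr39, a zinc receptor (at least 1.78-fold), Gpr1, a receptor for chemerin (at least 1.57-fold), Gpr171 (at least 1.38-fold), Gpr35 (at least 1.20-fold) and Gpr153 (at least 1.03-fold) were above the floor on the old array only, and Gpr158 and Gpr20 barely above it on the young array only. The other 35 were below the floor on both arrays, among them Gpr34 and Gpr84, known from macrophages, Gpr17, Gpr18 and Gpr174, and the receptors Gpr3, Gpr6 and Gpr12, which are active without a ligand.

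RGS genes split evenly, with 3 of 12 measured genes (25%) past 2-fold on the old side, against 16.0% of all genes, 3 (25%) on the young, against 11.3% of all genes, and a median log2 ratio of 0.38. In the R4 subfamily, small proteins that act on Gi and Gq, the members went opposite ways. Rgs1, known from B cells and T cells as a brake on chemokine receptors, had 1258 on the old array and 3.81 on the young, at least 17.1-fold higher. Rgs2, which acts mainly on Gq and lowers the response to vasoconstrictors, had 1508 on the old array and 536 on the young, and its 4 probe sets gave log2 ratios from 0.62, a bound, to 2.13. Rgs16 had 123 on the old array and 1598 on the young, a log2 ratio of -3.70. Its other probe sets were below the floor on the old array and gave bounds of -3.52 and -1.55, so all 3 lay on the young side. Rgs3 had 1884 on the old array and 978 on the young, with its 4 probe sets between 0.43 and 0.95, all under 2-fold. Rgs4, also a gene of pericytes and smooth muscle, had 76.4 on the old array, close to the floor, and 25.6 on the young, and Rgs8, Rgs13 and Rgs18, the last known from platelets, were below the floor on both.

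Outside the R4 subfamily, Rgs10, a small member known from macrophages and microglia, had 910 on the old array and 96.3 on the young (9.45-fold), with the young signal 1.31 times the floor. Its relatives Rgs12 (log2 ratio 0.50) and Rgs14 (0.55) were within 2-fold. Rgs17, which acts on Gi and Gz, was below the floor at 29.6 on the old array and had 352 on the young, at least 4.78-fold toward the young array, and its other probe set gave a bound of -1.82 in log2 ratio. Rgs9, known from photoreceptors and striatum, had 163 on the old array and 390.4 on the young (2.39-fold higher on the young). Rgs19, which acts on Gi, had 1915 on the old array and 3278 on the young (log2 ratio -0.78, and -0.60 by its other probe set). The probe sets of Rgs7bp disagreed in sign, from -0.91 to 0.26, and no direction is given for it. Rgs6, Rgs7, Rgs11, Rgs20 and Rgs9bp were below the floor on both arrays.

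**Figure D3:**
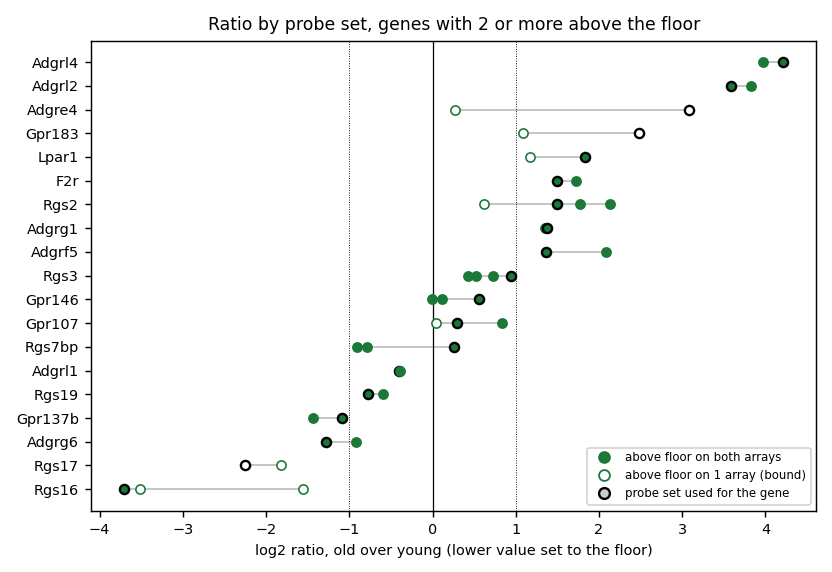
Log2 ratio of old over young for each probe set above the floor on at least 1 array, for the 19 genes with several such probe sets, with filled circles for probe sets above both floors, open circles for bounds and a black rim for the probe set used. In 17 genes all probe sets share 1 sign, and Rgs7bp and Gpr146 have both signs.

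Different probe sets of a gene are the only repeated measurement in these data, and describe the probes and not the mice. Over the 4514 genes that had several probe sets above both floors, the SD of the log2 ratio within a gene was 0.42. By a wider rule than that of the SD, 19 members had several probe sets above the floor on at least 1 array, and 17 of them had 1 sign in all of these. A probe set above the floor on 1 array only has its sign set by the floor. The share of all genes with 1 sign was not computed.

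Many members lie beside each other in the genome, and some neighbours lay on the same side while others did not. By gene order in RefSeq (GRCm38.p6), 37 matching genes, 29 of them measured, form 14 runs with no other protein-coding gene in between. In 6 runs 2 or more genes reached the floor, and in 4 of these all such genes had a log2 ratio above 0. The other 2 held both signs, the run of Adgrg1 and Adgrg3 only through Adgrg3 at -0.01. In the runs of Lpar4, P2ry10 and P2ry10b and of P2ry12, P2ry13 and Gpr171, each such gene was above the floor on the old array only. Their ratios are bounds that had to be above 0. Beside the count of 4 runs, the median log2 ratio of all 62 members above the floor was itself 0.55. Adgrl2 and Adgrl4 on chromosome 3, whose starts lie 2.48 Mb apart and point away from each other, were both on the old side (3.59 and 4.22). On the X chromosome Lpar4, P2ry10 and P2ry10b were each above the floor on the old array only, with bounds of 2.03, 1.18 and 1.66, and their neighbour Gpr174 was below the floor on both arrays. On chromosome 1 Rgs2 and Rgs1 were on the old side, while Rgs13 and Rgs18 in the same run were below the floor, and Rgs16, in another run on that chromosome, was on the young side. On chromosome 8 Adgre5 was at 1.78 and its neighbour Adgrl1 at -0.40, and Adgrg1 was at 1.38 and its neighbour Adgrg3 at -0.01. On chromosome 3 P2ry12, P2ry13 and Gpr171 were above the floor by less than 2-fold on the old array, and P2ry14 between them was below it.

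**Figure D4:**
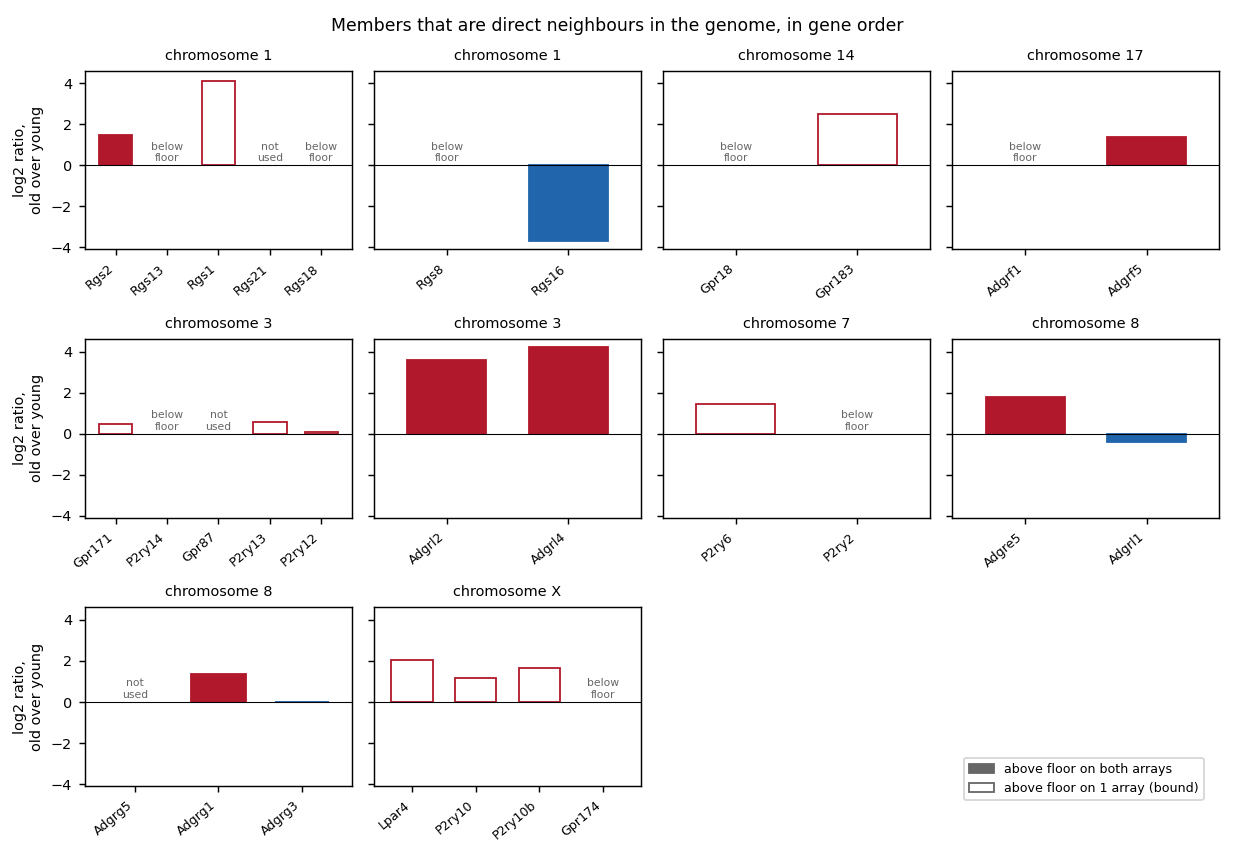
Log2 ratio of old over young for genes that are direct neighbours in the genome, 1 panel for each run with 2 or more measured genes of which at least 1 is above the floor, in gene order, with filled bars for genes above both floors and open bars for bounds. Adgrl2 and Adgrl4 are both at 3.59 or more, while Adgre5 at 1.78 stands beside Adgrl1 at -0.40.

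The genes for proteins on which these receptors act were mostly within 2-fold. So were 8802 of all 12105 genes above the floor on at least 1 array. Of those 12105 genes, 16.0% were past 2-fold on the old side and 11.3% on the young, the shares to set beside each list below. Of 10 measured alpha subunits 3 (30%) were past 2-fold on the old side and 0 on the young (median log2 ratio 0.39). Gnai1, an inhibitory subunit, was at least 10.2-fold toward the old array (751 on the old and 57.4 on the young), although its 3 probe sets spread from 0.18 to 3.35. Gna14, of the Gq class, was 3.12-fold and Gna12 2.44-fold higher on the old array. Their probe sets also spread, from 0.55 to 1.64 in log2 ratio for Gna14 and from 0.10 to 1.29 for Gna12. Gnai2 (0.40), Gnai3 (0.32), Gnas (0.38), Gna11 (0.30), Gna13 (0.54) and Gnaq (-0.56) were within 2-fold in log2 ratio. Of 11 measured beta and gamma subunits, 2 were past 2-fold on the old array and 1 on the young (median 0.10), namely Gnb4 (6.97-fold) and Gnb2 (2.06-fold) on the old and Gng2 (4.88-fold) on the young.

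Receptor kinases and arrestins, which switch receptors off and carry them inward, held 1 gene past 2-fold in each direction out of 6 (16.7%). Over all genes the shares were 16.0% on the old side and 11.3% on the young. Arrb2 had 6128 on the old array and 512 on the young (log2 ratio 3.58), while Arrb1 had a log2 ratio of 0.41. Grk5 had 330.5 on the old array and 2676 on the young (8.10-fold higher on the young), with its probe sets at -3.02 and -2.52, while Grk6 (0.52) and Grk3 (0.88) were within 2-fold. Among other G protein regulators, 2 of 10 measured genes were on the old side, Ric8a (2.61-fold) and Gpsm3 (2.12-fold), and 2 on the young, Gpsm2 (3.10-fold) and Axin2 (2.27-fold). The probe sets of Ric8a spread from 0.44 to 1.38 in log2 ratio. Adenylyl cyclases had Adcy7 (at least 2.38-fold) on the old and Adcy1 (2.24-fold) on the young side out of 8 measured. The probe sets of Adcy7 spread from 0.13 to 1.25 in log2 ratio. Among the 4 phospholipase C beta genes Plcb3 was 5.29-fold higher on the old array.

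**Figure D5:**
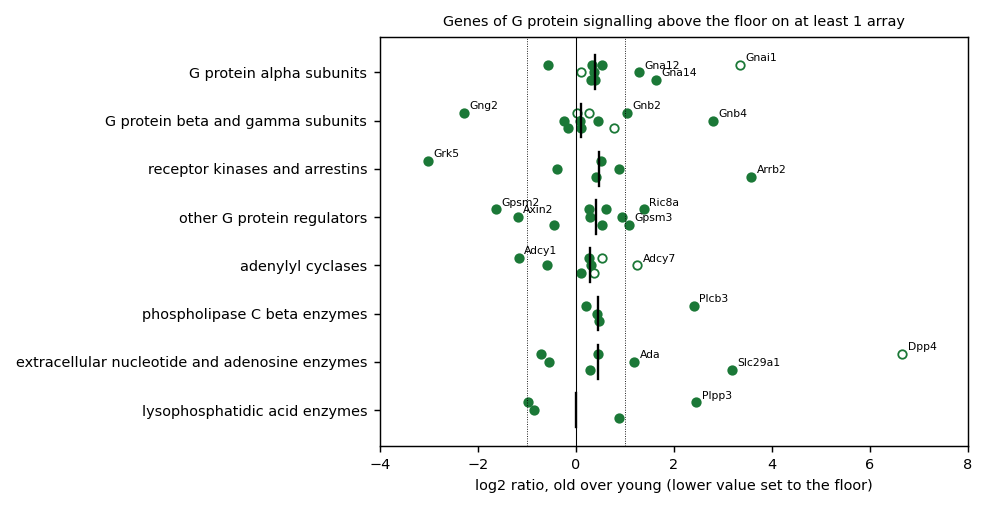
Log2 ratio of old over young for genes of 8 lists of G protein signalling that reached the floor on either array, with filled circles for genes above both floors, open circles for bounds, a black bar at each list's median and dotted lines at 2-fold. Arrb2 at 3.58 and Grk5 at -3.02 lie at opposite ends of the same list.

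Of the 32 members past 2-fold, 10 kept that call under all 8 alternatives run for single genes. On the old side these were Adgra3, Adgre5, Adgrl2, Adgrl4, Gpr155, Gpr4, Lpar6, Rgs1 and Rgs2, and on the young side Rgs16. With a floor at the 75th percentile, 489 units, the calls of Adgre1, Adgre4, Adgrg1, Gpr65, Gpr132, Gpr160, Gpr176, Gpr183, Lpar1, Lpar4, P2ry1, P2ry6, P2ry10, P2ry10b, Rgs9, Rgs10 and Rgs17 ended.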

How the data were processed

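RNA labelled as that of sorted lung vascular cells from old and young mice was measured on 2 arrays, 1 per age. The authors made linear MAS5 signal intensity values with GCOS 1.4, per the submitters' processing notes, and the deposited intensity columns share a trimmed mean (2% off either end) of 500.003.

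From 45101 probe sets, 64 controls were removed. Gene symbols came from the platform annotation of the array, in which 34958 probe sets had 1 symbol, 932 several and 9211 none. Scaling (factors of 1.05 for old and 0.956 for young) set to 0 the median log2 ratio of probe sets at or over their array's median on both, which was -0.13 as deposited. The probe set of highest mean log2 signal stood for each gene. For ratios, values below the floor of 73.7 were set to it. With 1 array per group the fixed size rule was 2-fold and no test was made. Members past 2-fold and at 2 times the floor were named in full, with the 3 genes of largest ratio in each signalling list, and other list genes named were chosen after their values were seen. Lists were matched by Entrez identifier. The members and lists were chosen with earlier results of these data known. Alternatives were the values as deposited, quantile normalization, loess (span 0.4), floors at the 25th and 75th percentiles, the mean over probe sets, leaving out shared-sequence probe sets (_x_at and _s_at), an offset of 0.5 of the floor, and 3-fold. The procedure was tested on simulated data. Python 3.11.15, numpy 2.4.6, pandas 2.3.3, statsmodels 0.14.6 and matplotlib 3.10.9 were used.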

Additional observations from a re-analysis of the deposited data

How the results depend on the processing

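No paired analysis was possible because each group has 1 array, and leaving out a replicate is not possible for the same reason. With the values as deposited, quantile normalization, loess or the mean over probe sets, the count of members past 2-fold was 23 to 25 on the old side and 7 on the young side, where 25 and 7 were reported, and no single ratio past 2-fold changed sign under any alternative. The choice of floor moved the counts most, to 42 on the old side and 11 on the young with the lower floor (20.3 units) and to 11 on the old side and 4 on the young with the higher. The offset gave 34 on the old side and 8 on the young, leaving out shared-sequence probe sets gave 24 on the old side and 4 on the young, and the 3-fold rule gave 15 on the old and 3 on the young. The median log2 ratio of adhesion receptors, 1.38 as reported, was 0.59 with the higher floor and 0.66 with the offset. That of P2Y receptors, 1.32 as reported, was 2.73 with the lower floor and 1.93 with the offset, and had no value with the higher floor, where no P2Y gene was measured. For lysophosphatidic acid receptors (1.93) it was 2.46 with the lower floor, 2.90 with the higher and 1.46 with the offset. For protease-activated receptors (0.43) it was 1.50 with the higher floor and -0.65 without shared-sequence probe sets, which leaves out F2r, and for RGS proteins (0.38) 0.90 with the higher floor. With the higher floor the log2 ratios of Gpr155, Gpr4, Rgs1 and Rgs16 were 3.47, 1.54, 1.36 and -1.71. Signal close to the floor limits every gene whose lower value lies there.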
